A study of Mus musculus with 12 samples.

Results

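Immune checkpoint receptors and ligands are the surface proteins through which T cells are restrained or helped by the cells they meet, and 10 of their genes were followed here in PyMT mammary tumors. The genes were Pdcd1, Cd274, Pdcd1lg2, Ctla4, Cd80, Cd86, Lag3, Havcr2, Tigit and Cd276. They were found by symbol, and all 10 were present among the 21960 genes listed for each tumor.

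PD-1 is a receptor on activated T cells that dampens signaling from the T cell receptor when it binds PD-L1 or PD-L2 on tumor or myeloid cells. CTLA-4 competes with the activating receptor CD28 for CD80 and CD86 on antigen-presenting cells, and LAG-3, TIM-3 and TIGIT are further inhibitory receptors of T and NK cells. In mammary tumors such receptors are typically carried by infiltrating lymphocytes and myeloid cells, a small part of the tissue, whereas PD-L1 and B7-H3 can also be made by the tumor cells.

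The tumors came from female C57BL/6 mice in which the MMTV promoter drives the polyoma virus middle T oncoprotein, so that tumors arise in the mammary epithelium. RNA of 12 whole tumors was sequenced, 3 in each of 4 groups, to ask how doxorubicin (DOX), a cytotoxic anthracycline, and blockade of PD-1 act alone and together. The values were taken as TPM, a unit of transcript abundance that corrects for transcript length, so that genes can be compared in level. TPM is the unit named in the study's methods, and the values alone do not exclude FPKM, another unit corrected for length. The age of the mice at sampling is not given in the sources used here.

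The IgG1 and anti-PD-1 groups received antibody alone, starting when the first tumor measured 0.6 cm, with 20 mg/kg at first and 10 mg/kg thereafter. The antibody was clone 4H2 against mouse PD-1 or an IgG1 control. The DOX/IgG1 and DOX/anti-PD-1 groups were first treated at 1 cm and received 5 mg/kg doxorubicin each week for 5 weeks, followed a day later by 10 mg/kg of either antibody. The labels give 5 weeks of treatment for all groups, but antibody alone was given at intervals of 6 days by the protocol. Effects of doxorubicin therefore cannot be told apart from those of the schedule, the first dose of antibody and the tumor size at which treatment began. The sources used here do not state that the tumors of a group came from different mice, and p-values measure the spread between these tumors only.

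TPM keep no sequencing depth, so the depth of the libraries is unknown, and a gene listed at 0 may be below detection. The summed TPM ranged from 609418 to 725506, and between 13856 and 15426 genes were above 0. Tumor 1 of the DOX/IgG1 group had the fewest genes above 0 and the lowest mean correlation with the other tumors, 0.877 against 0.888 to 0.920, and its values stand under a header that carries the word test. The other first tumors of each group (14267 in IgG1, 14349 in anti-PD-1 and 14230 in DOX/anti-PD-1) and tumor 3 of DOX/anti-PD-1 (14299) came next in number of genes. Cd274 and Havcr2 are also given without tumor 1 of DOX/IgG1. Values of a group are listed in the order of tumors 1, 2 and 3.

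The members differed widely in level. Averaged over the 12 tumors, Cd276 was highest at 19.3 TPM, followed by Havcr2 at 8.13, Cd86 at 8.04 and Cd274 at 4.02 TPM. These 4 genes were above 0 in every tumor. Tigit (1.92 TPM), Lag3 (1.38), Cd80 (1.38), Pdcd1 (0.522), Ctla4 (0.279) and Pdcd1lg2 (0.0517) were each listed at 0 in at least 1 tumor. Between 5 and 10 members were above 0 in a tumor, with 5 in the first tumors of the anti-PD-1 and DOX/IgG1 groups and all 10 in tumor 3 of DOX/IgG1. The summed level of the members ranged from 31.8 TPM in tumor 3 of the anti-PD-1 group to 61.6 TPM in tumor 3 of DOX/IgG1.

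Few neighbors in the order of the levels within a group were apart without overlap. In IgG1 tumors, Cd276 stood above all other members without overlap, Cd86 and Havcr2 overlapped, and both stood above Cd274. The 3 anti-PD-1 tumors also had Cd276 on top, with Havcr2, Cd86 and Cd274 each overlapping the next in the order. In DOX/IgG1 tumors, Cd276 and Havcr2 overlapped, as did Havcr2 and Cd86, and Cd86 stood above Cd274, which overlapped Tigit. In DOX/anti-PD-1 tumors, Cd276 and Cd86 overlapped, and Cd86 stood above Cd274 and Havcr2, which overlapped each other. Neighbors below these genes overlapped in all groups except Cd80 over Pdcd1 in DOX/anti-PD-1.

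**Figure D1:**
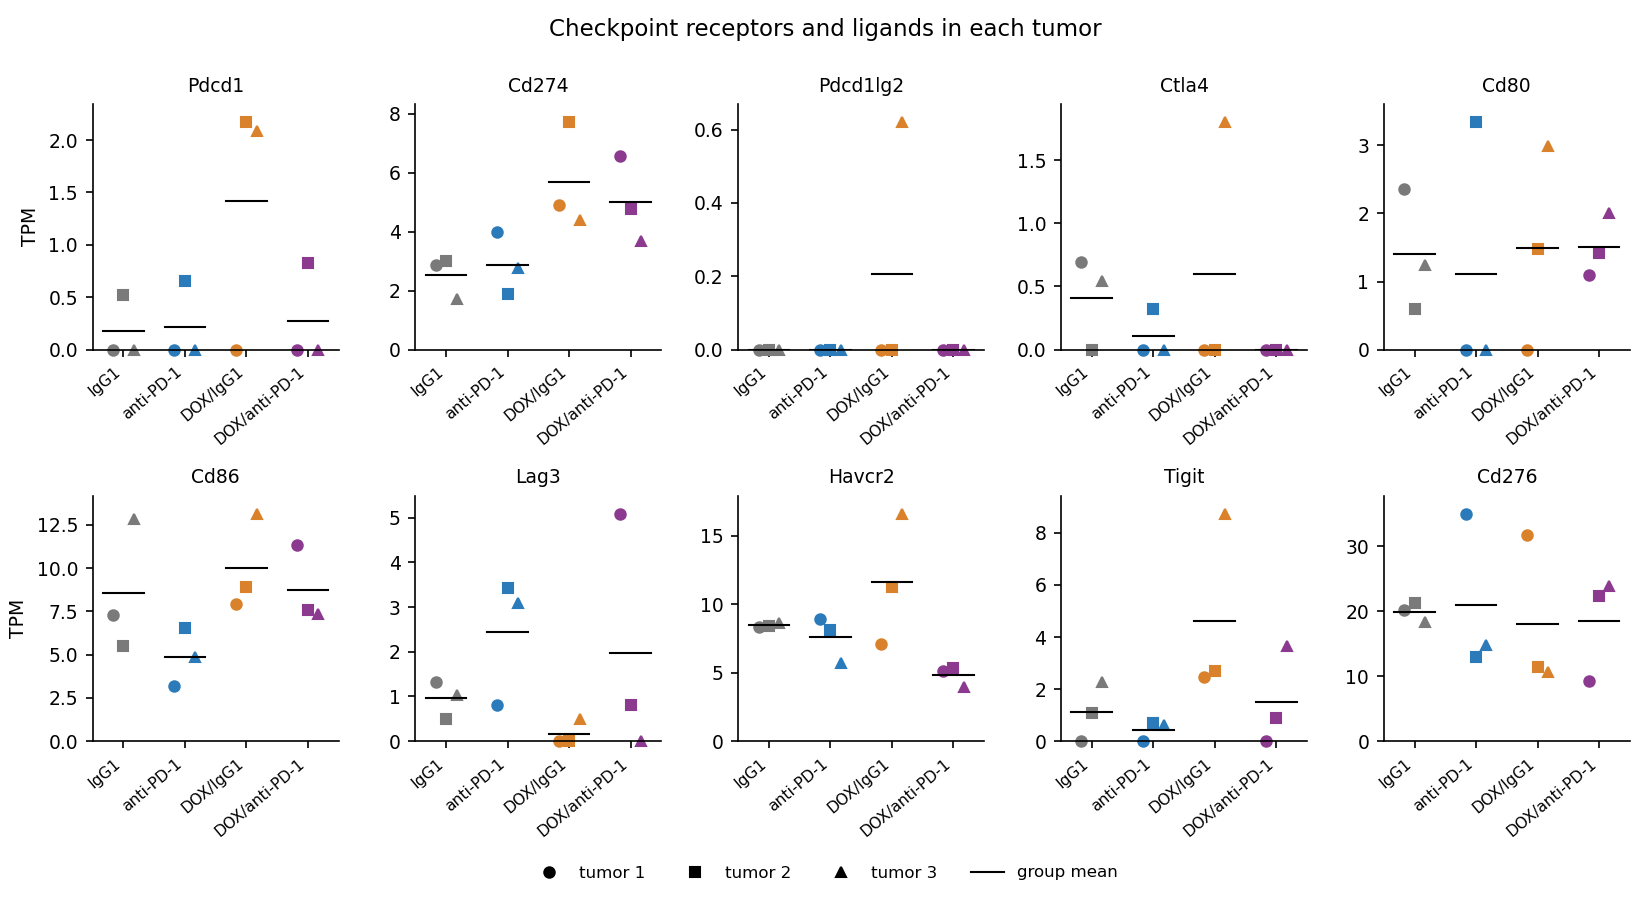
Level of each of the 10 members in TPM (y axis) in the 12 tumors by treatment group (x axis), each point 1 tumor. Cd274 was higher in every DOX/IgG1 tumor than in every IgG1 tumor, and Pdcd1, Pdcd1lg2 and Ctla4 were listed at 0 in most tumors.

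Pdcd1 (ENSMUSG00000026285, chr1:94038305-94052553 on GRCm38, minus strand) encodes PD-1, the target of the antibody. Its values in TPM were 0, 0.52 and 0 for IgG1, 0, 0.65 and 0 for anti-PD-1, 0, 2.17 and 2.09 for DOX/IgG1, and 0, 0.83 and 0 for DOX/anti-PD-1. Only tumors 2 and 3 of DOX/IgG1 exceeded 1 TPM, all groups overlapped, and every first tumor was at 0. Bulk RNA cannot tell fewer PD-1-bearing cells from less Pdcd1 RNA per cell.

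Pdcd1 stayed below the minimum level for the test, which asked for 3 or more of the compared tumors at 1 TPM. Its difference in mean log2(TPM + 1) was 0.04 for anti-PD-1 against IgG1 and 0.90 for DOX/IgG1 against IgG1. It was 0.05 for DOX/anti-PD-1 against anti-PD-1 and -0.81 for DOX/anti-PD-1 against DOX/IgG1. Exact permutation tests, two-sided, gave p = 1, 0.4, 1 and 0.4 in this order, where 3 tumors against 3 cannot give less than 0.1. Averaged over the other treatment, the difference was 0.47 for doxorubicin and -0.38 for anti-PD-1 (exact permutation p = 0.23 and 0.34, two-sided, smallest possible 0.005). With no minimum level, limma gave adjusted p-values for Pdcd1 between 0.636 and 0.992 over the 7 comparisons, the interaction included (log2 estimate -0.85, SE 0.62). No difference in Pdcd1 passed a test.

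Cd274 (ENSMUSG00000016496, chr19:29367455-29388095, plus strand) encodes PD-L1, and Pdcd1lg2 (ENSMUSG00000016498, chr19:29410919-29471161, plus strand) encodes PD-L2, the second ligand of PD-1. The genes are neighbors with 22823 bases between them, yet Cd274 was above 0 in all 12 tumors and Pdcd1lg2 in 1. Their promoters, the 250 bases before the annotated start (RefSeq, GRCm38.p6), are shown together with that of Cd276, the most abundant member, because Pdcd1lg2 and Cd276 were the lowest and the highest of the ligands and Cd274 lies next to the former. Capitals mark the GC box, GGGCGG on either strand. The windows are chr19:29367188-29367437 (plus strand) for Cd274, chr19:29410669-29410918 (plus strand) for Pdcd1lg2 and chr9:58555034-58555283 (minus strand) for Cd276, each printed 5′ to 3′ in the direction of the gene.
Cd274: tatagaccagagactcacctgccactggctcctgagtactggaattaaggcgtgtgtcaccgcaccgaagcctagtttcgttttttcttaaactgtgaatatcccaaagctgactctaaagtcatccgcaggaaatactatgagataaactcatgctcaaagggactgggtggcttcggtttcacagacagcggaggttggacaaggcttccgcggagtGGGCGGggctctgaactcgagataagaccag
Pdcd1lg2: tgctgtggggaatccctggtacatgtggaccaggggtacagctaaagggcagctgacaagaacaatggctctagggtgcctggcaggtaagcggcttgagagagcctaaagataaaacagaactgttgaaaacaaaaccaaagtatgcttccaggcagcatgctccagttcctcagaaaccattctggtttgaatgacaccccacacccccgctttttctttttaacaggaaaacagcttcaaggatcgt
Cd276: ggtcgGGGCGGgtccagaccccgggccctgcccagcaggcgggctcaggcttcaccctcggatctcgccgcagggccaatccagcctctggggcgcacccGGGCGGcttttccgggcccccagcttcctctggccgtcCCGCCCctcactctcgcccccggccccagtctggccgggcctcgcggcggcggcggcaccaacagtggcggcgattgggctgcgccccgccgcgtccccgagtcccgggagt

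The GC box, the letters read by Sp-family factors, was present once in the Cd274 window and 3 times in that of Cd276, and was not found in that of Pdcd1lg2. GC content was 50.4% for Cd274, 48.4% for Pdcd1lg2 and 77.6% for Cd276. Promoter entries were found for 8 of the 10 members, without Lag3 and Cd86. The GC box was in 3 of these 8, Pdcd1, Cd274 and Cd276, and in 33.0% of the 32536 promoters of the same length. The AP-1 site TGANTCA was in 2 of 8, Cd80 and Havcr2, and in 6.73% of all promoters. The interferon response element, 2 copies of GAAA set 2 bases apart (2.98% of all promoters), and the gamma activated site TTCNNNGAA (7.04%), searched on both strands, were in none of the 8 windows. Such a match describes the letters only.

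Under IgG1, Cd274 was at 2.88, 3.01 and 1.70 TPM (mean 2.53 ± 0.722, SD, n = 3), and under anti-PD-1 at 3.98, 1.87 and 2.75 TPM (2.87 ± 1.06, SD, n = 3). With doxorubicin added, it was at 4.91, 7.71 and 4.38 TPM under IgG1 (5.67 ± 1.79, SD, n = 3) and 6.58, 4.78 and 3.67 TPM under anti-PD-1 (5.01 ± 1.47, SD, n = 3). All 3 DOX/IgG1 tumors lay above all 3 IgG1 tumors. DOX/anti-PD-1 overlapped anti-PD-1 through a single pair, tumor 3 at 3.67 and tumor 1 at 3.98 TPM.

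In limma, Cd274 had a log2 fold change of 0.91 (SE 0.43, 95% interval -0.07 to 1.89, adjusted p = 0.667) for DOX/IgG1 against IgG1, and the exact permutation p was 0.1, the smallest possible. In DOX/anti-PD-1 against anti-PD-1 it was 0.64 (SE 0.42, limma adjusted p = 0.691, exact permutation p = 0.2). Over both antibodies, the effect of doxorubicin on Cd274 was 0.78 (SE 0.28, 95% interval 0.19 to 1.37), with an unadjusted limma p of 0.0134, an adjusted p of 0.298 and an exact permutation p of 0.01. The unadjusted p-values were thus low, although tumors with and without doxorubicin overlapped. In this comparison 12.0% of all genes had an unadjusted limma p below 0.05. The difference in Cd274 was not called after adjustment over 14735 genes. Without tumor 1 of DOX/IgG1, the average effect was 0.79 (limma adjusted p = 0.219).

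With anti-PD-1, Cd274 overlapped its control in both chemotherapy arms. The log2 fold change was 0.12 (SE 0.42, limma adjusted p = 0.996, exact permutation p = 0.8) against IgG1 and -0.15 (SE 0.43, limma adjusted p = 0.994, exact permutation p = 0.6) on the doxorubicin background. Its average over both chemotherapy arms was -0.01 (SE 0.28, 95% interval -0.60 to 0.58, limma adjusted p = 1.00), and that of the interaction with doxorubicin was -0.26 (SE 0.56, limma adjusted p = 0.993), between -0.46 and -0.05 when 1 tumor was left out.

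Pdcd1lg2 was listed at 0 in 11 tumors and at 0.62 TPM in tumor 3 of DOX/IgG1. No fold change or test is given for it.

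Ctla4 (ENSMUSG00000026011, chr1:60887000-60915832, plus strand) encodes CTLA-4, which is carried by activated and regulatory T cells. Without chemotherapy it was listed at 0.69, 0 and 0.54 TPM for IgG1 and 0, 0.32 and 0 for anti-PD-1. DOX/IgG1 tumors had 0, 0 and 1.80 TPM, and all DOX/anti-PD-1 tumors 0. It was above 0 in 4 of 12 tumors and did not reach the minimum level for the test in any comparison. The regulatory T cell markers Foxp3, Il2ra, Ikzf2 and Ikzf4 summed to between 3.65 TPM in tumor 1 of DOX/IgG1 and 30.2 TPM in tumor 3 of DOX/IgG1, with Ikzf2 the most abundant at a mean of 13.9 TPM. Ikzf2 made up most of the sum in every tumor, whereas Foxp3 was between 0 and 2.69 TPM. The sum is therefore not read as the content of regulatory T cells.

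The ligands CD80 and CD86 are displayed by dendritic cells and macrophages. Cd80 (ENSMUSG00000075122, chr16:38455561-38496335, plus strand) had values in TPM of 2.36, 0.60 and 1.24 for IgG1, 0, 3.34 and 0 for anti-PD-1, 0, 1.48 and 2.99 for DOX/IgG1, and 1.10, 1.42 and 2 for DOX/anti-PD-1. Every group overlapped every other for Cd80.

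Cd86 (ENSMUSG00000022901, chr16:36603869-36666081, minus strand) was at 7.26, 5.50 and 12.83 TPM under IgG1 (8.53 ± 3.83, SD, n = 3), and under anti-PD-1 at 3.18, 6.54 and 4.84 TPM (4.85 ± 1.68, SD, n = 3). The values with doxorubicin were 7.94, 8.93 and 13.14 TPM under IgG1 (10.0 ± 2.76, SD, n = 3) and 11.35, 7.55 and 7.36 TPM under anti-PD-1 (8.75 ± 2.25, SD, n = 3). The 3 anti-PD-1 tumors lay below the 3 DOX/anti-PD-1 tumors, whereas IgG1 overlapped all other groups. The log2 fold change of Cd86 for DOX/anti-PD-1 against anti-PD-1 was 0.75 (SE 0.38, 95% interval -0.11 to 1.61, limma adjusted p = 0.616, exact permutation p = 0.1). After scaling of the tumors by the median of ratios it was 0.65 and these groups overlapped. It ranged from 0.53 to 0.96 when 1 tumor was left out, and was 0.37 without the 5 tumors with the fewest genes above 0, which left 1 DOX/anti-PD-1 tumor.

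LAG-3, a receptor for MHC class II on activated T cells, is encoded by Lag3 (ENSMUSG00000030124, chr6:124904361-124911705, minus strand). Lag3 values in TPM were 1.33, 0.50 and 1.04 for IgG1, 0.81, 3.42 and 3.08 for anti-PD-1, 0, 0 and 0.50 for DOX/IgG1, and 5.09, 0.80 and 0 for DOX/anti-PD-1. DOX/IgG1 tumors had 0.50 TPM or less and overlapped IgG1 at that value and DOX/anti-PD-1, whose tumor 3 was also at 0. Averaged over both chemotherapy arms, the log2 fold change of Lag3 with anti-PD-1 was 0.84 (SE 0.42, limma adjusted p = 0.999, exact permutation p = 0.08).

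Havcr2 (ENSMUSG00000020399, chr11:46454935-46481255, plus strand) encodes TIM-3, which is found on T cells, dendritic cells and macrophages. Without chemotherapy it was at 8.33, 8.44 and 8.60 TPM under IgG1 (8.46 ± 0.136, SD, n = 3) and 8.94, 8.10 and 5.74 TPM under anti-PD-1 (7.59 ± 1.66, SD, n = 3). With doxorubicin it was at 7.08, 11.25 and 16.62 TPM under IgG1 (11.7 ± 4.78, SD, n = 3) and 5.11, 5.33 and 3.98 TPM under anti-PD-1 (4.81 ± 0.724, SD, n = 3). The 3 DOX/anti-PD-1 tumors were the lowest of all 12, while DOX/IgG1 was spread around the IgG1 values. Itgax, the most abundant of the dendritic cell markers, was also lowest in these 3 tumors, at 14.16, 12.61 and 12.84 TPM against 16.18 TPM or more in the 9 others. Its log2 fold change was -1.20 against anti-PD-1 (limma adjusted p = 0.479) and -0.77 against DOX/IgG1 (limma adjusted p = 0.988). Zbtb46, another of these markers, was higher without overlap in DOX/anti-PD-1 in both comparisons (0.92 and 0.33, limma adjusted p = 0.531 and 0.990), and against anti-PD-1 the log2 fold changes of 4 of 6 tested dendritic cell markers were above 0 (median 0.12), whereas against DOX/IgG1 those of 4 of 7 were below 0 (median -0.30). The part of dendritic cell content in the values of Havcr2 was not tested.

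Against DOX/IgG1, DOX/anti-PD-1 tumors had a log2 fold change of Havcr2 of -1.06 (SE 0.43, 95% interval -2.03 to -0.09, limma adjusted p = 0.988, exact permutation p = 0.1). Against anti-PD-1 it was -0.55 (SE 0.35, 95% interval -1.35 to 0.24, limma adjusted p = 0.689, exact permutation p = 0.1), with a range of -0.72 to -0.44 when 1 tumor was left out and a value of -0.31 without the 5 tumors with the fewest genes. Averaged over both chemotherapy arms, the effect of anti-PD-1 on Havcr2 was -0.61 (SE 0.27, 95% interval -1.19 to -0.03), with an unadjusted limma p of 0.0409, an adjusted p of 0.999 and an exact permutation p of 0.03. The interaction was -0.90 (SE 0.50, limma adjusted p = 0.993), so that a different effect of anti-PD-1 with and without doxorubicin was not shown. Without tumor 1 of DOX/IgG1, the difference from DOX/IgG1 was -1.35 (limma adjusted p = 0.519) and the interaction -1.19 (limma adjusted p = 0.703). Without tumor 3 of DOX/IgG1 they were -0.78 and -0.63, and an unadjusted p below 0.05 was lost in 5 of 6 fits without 1 tumor for the difference from DOX/IgG1 and in 6 of 12 for the average effect of anti-PD-1.

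Tigit (ENSMUSG00000071552, chr16:43648867-43664146, minus strand) encodes TIGIT, which shares its ligands with the activating receptor CD226. Tigit was listed at 0, 1.09 and 2.26 TPM for IgG1 and 0, 0.68 and 0.61 for anti-PD-1. The DOX/IgG1 tumors were at 2.45, 2.71 and 8.74 TPM and those with DOX/anti-PD-1 at 0, 0.87 and 3.66. The 3 DOX/IgG1 tumors lay above all IgG1 and anti-PD-1 tumors, and overlapped DOX/anti-PD-1 through its tumor 3.

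The log2 fold change of Tigit for DOX/IgG1 against IgG1 was 1.40 (SE 0.63, 95% interval -0.04 to 2.83, limma adjusted p = 0.653, exact permutation p = 0.1). Leaving out 1 tumor moved it between 0.92, without tumor 3 of DOX/IgG1, and 1.79, without tumor 3 of IgG1. Over both antibodies, doxorubicin gave 0.98 (SE 0.45, 95% interval 0.01 to 1.95), with an unadjusted limma p of 0.0475, an adjusted p of 0.409 and an exact permutation p of 0.06. The unadjusted p was 0.05 or more in 6 of 12 fits without 1 tumor, and also with a pseudocount of 0.1, a filter on the mean or median of ratios. With a pseudocount of 0.1 the former comparison gave 2.61 and the average 1.76 (limma adjusted p = 0.710 and 0.548), more than 1.5 times as large, as low values are compressed when 1 is added.

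Cd276 (ENSMUSG00000035914, chr9:58524298-58555437, minus strand) encodes B7-H3, a B7-family ligand made by many tumor cells, whose receptor is debated. Its values were 20.14, 21.31 and 18.35 TPM under IgG1 (19.9 ± 1.49, SD, n = 3) and 34.99, 12.99 and 14.82 TPM under anti-PD-1 (20.9 ± 12.2, SD, n = 3). They were 31.78, 11.38 and 10.68 TPM under DOX/IgG1 (17.9 ± 12.0, SD, n = 3) and 9.23, 22.28 and 23.84 TPM under DOX/anti-PD-1 (18.5 ± 8.02, SD, n = 3). The group means lay between 17.9 and 20.9 TPM, and outside the IgG1 group the tumors of a group differed more than the group means did. The log2 fold changes of Cd276 ran from -0.32 to 0.17 over the 7 comparisons, and its lowest unadjusted limma p was 0.478.

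**Figure D2:**
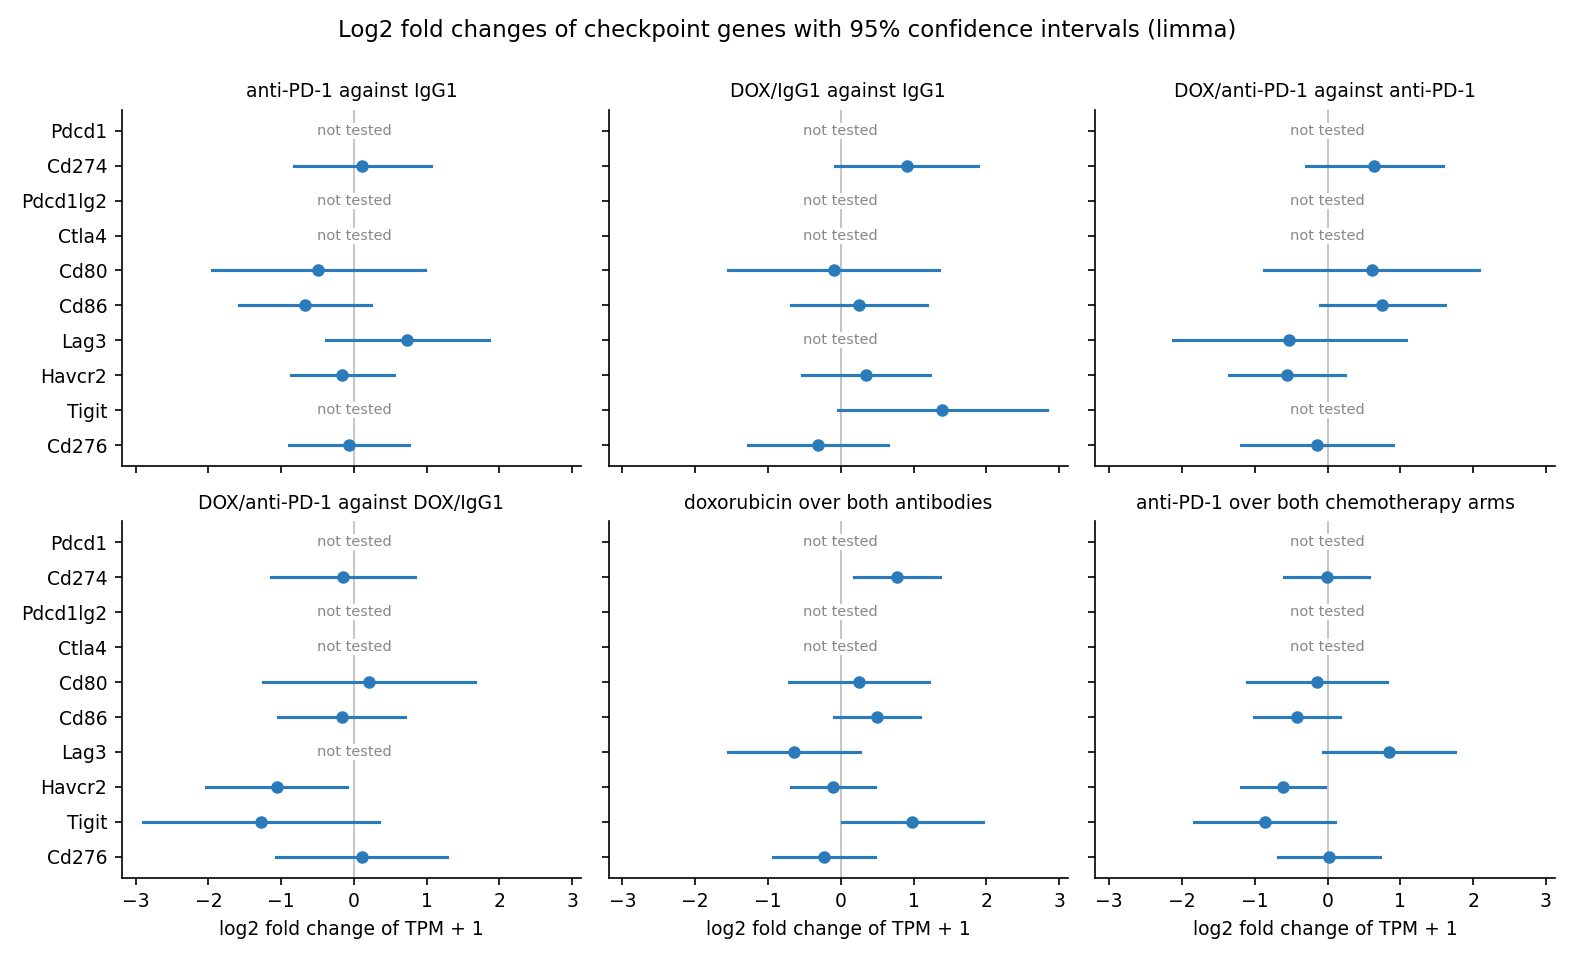
Log2 fold change of the members (x axis) with 95% intervals from limma for 6 comparisons, with 1 gene on each line (y axis) and genes under the minimum level marked as not tested. The intervals that do not span 0 are those of Cd274 and Tigit for the average of doxorubicin, and of Havcr2 for the average of anti-PD-1 and for DOX/anti-PD-1 against DOX/IgG1, and none of the 4 passed the adjustment.

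The first comparison asked what anti-PD-1 did without chemotherapy. Of the 10 members, 6 reached the minimum level (Cd274, Cd80, Cd86, Lag3, Havcr2 and Cd276), and limma called 0 of them at an adjusted p below 0.1 with an absolute log2 fold change above 1, against 0% of the 13692 genes tested. The count at an unadjusted p below 0.05 was 0, against 4.60% of all genes. Groups did not overlap for 0 members, against 9.88% of all genes. The 6 log2 fold changes ran from -0.67 for Cd86 to 0.73 for Lag3, with a median of -0.11 against -0.03 over all genes tested.

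For DOX/IgG1 against IgG1, 6 members were tested (Cd274, Cd80, Cd86, Havcr2, Tigit and Cd276). Limma called 0 of them, against 0.0360% of 13874 genes, and 0 had an unadjusted p below 0.05, against 7.73% of all genes. The latter count was 2 without the trend, with all 12 tumors in one fit and without tumor 1 of DOX/IgG1. Of the 13874 genes, 1077, 1260 and 1804 had that p in these fits, against 1073 in the main fit. The count of members was 1 with a replicate block, without the 5 tumors with the fewest genes above 0 and without tumor 3 of IgG1. There, 1202, 2095 and 965 of all genes had that p. In the other alternatives the count of members was 0. Nothing about the members as a group is read from these counts. Groups did not overlap for 2 of 6, Cd274 and Tigit, both higher with doxorubicin, against 14.0% of all genes. With so few genes, 1 gene more or less moves this share widely, and nothing about the members as a group is read from it. The median of the 6 was 0.30 against 0.12 over all genes tested.

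For DOX/anti-PD-1 against anti-PD-1, 6 members were tested (Cd274, Cd80, Cd86, Lag3, Havcr2 and Cd276). Limma called 0, against 0% of 13736 genes, and 0 had an unadjusted p below 0.05, against 8.63% of all genes. Groups did not overlap for 2 of 6, Cd86 (higher with doxorubicin) and Havcr2 (lower), against 14.9% of all genes, again too few genes to set the share apart from the background. The median of the 6 was 0.23 against 0.11 over all genes.

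For DOX/anti-PD-1 against DOX/IgG1, the 6 members tested were Cd274, Cd80, Cd86, Havcr2, Tigit and Cd276. Limma called 0, against 0% of 13946 genes, and Havcr2 alone had an unadjusted p below 0.05, 1 of 6 against 4.70% of all genes. Havcr2 was also the 1 member whose groups did not overlap, against 10.2% of all genes. The 6 values ran from -1.28 for Tigit, whose groups overlapped, to 0.21 for Cd80, and their median was -0.16 against -0.04 over all genes.

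Averaged over both antibodies, doxorubicin was tested on 7 members (Cd274, Cd80, Cd86, Lag3, Havcr2, Tigit and Cd276). Limma called 0, against 0.0204% of 14735 genes, and 2 of 7 (Cd274 and Tigit) had an unadjusted p below 0.05, against 12.0% of all genes. The median of the 7 was 0.25 against 0.12 over all genes. Averaged over both chemotherapy arms, anti-PD-1 gave 0 calls in limma, against 0% of all genes, and 1 of 7 (Havcr2) at an unadjusted p below 0.05, against 4.69%, with a median of -0.14 against -0.03 over all genes. The interaction gave 0 calls among the 7, against 0.00679%, and 0 at an unadjusted p below 0.05, against 4.71%, with a median of 0.17 against -0.01. These comparisons share tumors with one another, so their counts are not independent.

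The median of all genes was above 0 in each comparison with doxorubicin. Scaling the tumors by the median of ratios moved it from 0.12 to 0.01 for DOX/IgG1 against IgG1, from 0.11 to -0.01 for DOX/anti-PD-1 against anti-PD-1 and from 0.12 to 0.01 for the average of doxorubicin. With this scaling the log2 fold change of Cd274 was 0.80 for DOX/IgG1 against IgG1 and 0.68 on average, and that of Tigit was 1.36 and 0.93. With it, 1 member instead of 2 had an unadjusted p below 0.05 for the average of doxorubicin, as Tigit was at 0.0555. Over all genes, 1707 of 14698 had that p with this scaling, against 1765 of 14735 without it. Havcr2 was at -1.03 for DOX/anti-PD-1 against DOX/IgG1 and at -0.58 for the average of anti-PD-1.

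The partners of the members lie on either side of the same contacts. CD28 is the activating receptor for CD80 and CD86, and Cd28 in TPM was 0, 1.14 and 0 for IgG1, 0.92, 0.35 and 0.32 for anti-PD-1, 1.28, 0.56 and 1.83 for DOX/IgG1, and 0, 0.18 and 1.91 for DOX/anti-PD-1. Cd226, the activating counterpart of Tigit, had 0, 0.43 and 2.40 TPM for IgG1, 1.37, 2.11 and 1.19 for anti-PD-1, 5.20, 7.75 and 6.81 for DOX/IgG1, and 1.57, 1.35 and 0 for DOX/anti-PD-1. The 3 DOX/IgG1 tumors were thus the highest for Cd226, above the 9 others without overlap.

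Limma gave Cd226 a log2 fold change of 2.15 (SE 0.55, adjusted p = 0.460) for DOX/IgG1 against IgG1 and of -2.04 (SE 0.54, adjusted p = 0.988) for DOX/anti-PD-1 against DOX/IgG1, neither of which was called. Both comparisons share the DOX/IgG1 tumors. Cd96, a receptor of the same family, was between 0 and 3.05 TPM. The ligands shared by TIGIT and CD226 were more abundant. Pvr was between 14.73 and 68.67 TPM and Nectin2 between 29.9 and 58.71 TPM, both in all 12 tumors. Lgals9 and Ceacam1, ligands of TIM-3, were between 35.15 and 90.36 TPM and between 85.98 and 286.3 TPM, above Havcr2 in every tumor. Fgl1, a ligand of LAG-3, was between 0 and 6.00 TPM, with the highest value in tumor 1 of the anti-PD-1 group.

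**Figure D3:**
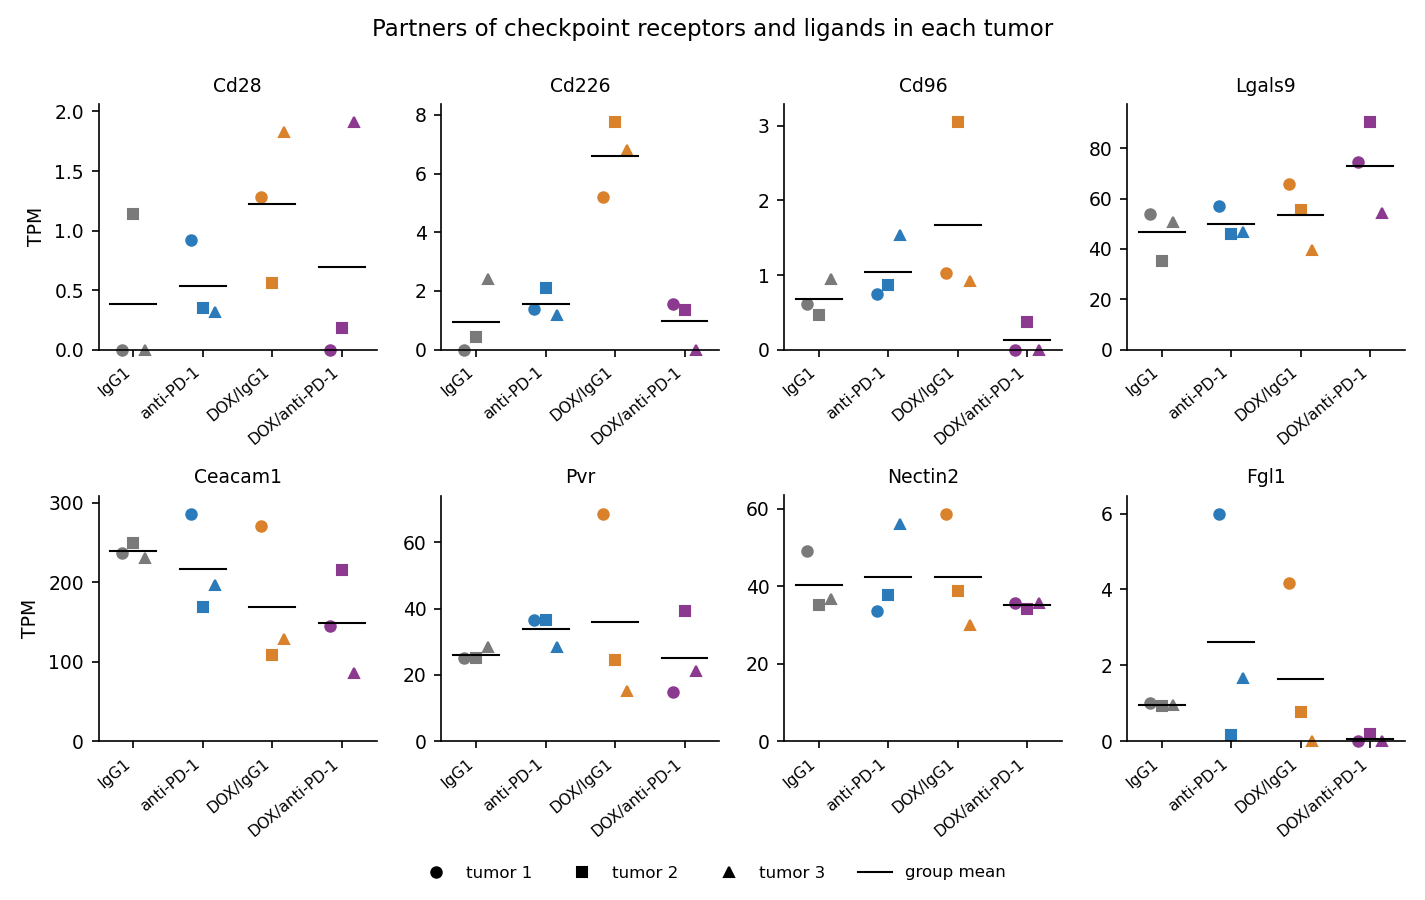
Level in TPM (y axis) of partners of the checkpoint receptors in the 12 tumors by group (x axis), each point 1 tumor. Cd226 was at 5.20 TPM or more in the 3 DOX/IgG1 tumors and at 2.40 TPM or less elsewhere, and the ligands Pvr, Nectin2, Lgals9 and Ceacam1 were above 10 TPM in every tumor.

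Beyond the members, 15 other checkpoint and costimulatory receptors were listed, with Sirpa the most abundant at a mean of 48.2 TPM. Limma called 0 of them in any comparison. At an unadjusted p below 0.05, 2 were higher and 0 lower of 12 tested for DOX/IgG1 against IgG1, where Cd27, a receptor that sustains T cell activation, had a log2 fold change of 1.36 (adjusted p = 0.560) beside Cd226. For DOX/anti-PD-1 against DOX/IgG1, 0 were higher and 2 lower of 12, Cd27 at -2.10 (adjusted p = 0.988) and Cd226. Cd27 reached 173.22 TPM in tumor 1 of DOX/IgG1, against 7.92 to 59.48 TPM in the 11 other tumors. The T cell markers described below were among the lowest in that tumor (16.58 TPM in sum), so Cd27 did not follow them there. Of 11 tested for DOX/anti-PD-1 against anti-PD-1, 0 were higher and 2 lower, with Tnfrsf18, the costimulatory receptor GITR, at -1.84 (adjusted p = 0.562). Without chemotherapy, 0 of 10 reached that p with anti-PD-1, and Vsir, which encodes the inhibitory protein VISTA, was lower without overlap at -0.51.

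Of 16 other checkpoint ligands, Ceacam1 was the most abundant at a mean of 193.6 TPM, and 0 were called by limma in any comparison. Icosl, the ligand of ICOS, was 1 of 2 higher at an unadjusted p below 0.05 for DOX/IgG1 against IgG1 (log2 fold change 1.07, adjusted p = 0.615), with 0 of 13 lower. For DOX/anti-PD-1 against anti-PD-1, 3 were higher and 1 lower of 13, among them Vtcn1 (1.11, adjusted p = 0.488), which encodes the B7-family ligand B7-H4, Icosl (0.97, adjusted p = 0.555) and Nectin3 (-0.89, adjusted p = 0.533). Nectin3 was at 0.72 with anti-PD-1 alone (adjusted p = 0.996), the 1 of 14 with an unadjusted p below 0.05 there, and Vtcn1 was at -0.55. None of 13 reached that p for DOX/anti-PD-1 against DOX/IgG1.

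PD-1 acts through the phosphatase SHP-2, encoded by Ptpn11, on kinases and adaptors near the T cell receptor. Of 13 genes of this signaling list, Pik3r1 was the most abundant at a mean of 507.7 TPM, and 0 were called by limma in any comparison. At an unadjusted p below 0.05, 1 of 12 was higher for DOX/IgG1 against IgG1 and 3 of 12 for the average of doxorubicin, with 0 lower in either. Lck, the kinase that starts signaling at the T cell receptor, and the adaptor Lcp2 were higher without overlap for DOX/anti-PD-1 against anti-PD-1 (0.99 and 0.76, adjusted p = 0.616 for both), where 0 of 12 had an unadjusted p below 0.05. The phosphatase gene Ptpn11 itself was between 20.92 and 50.12 TPM in all tumors.

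Interferon-gamma induces PD-L1, and CMTM6 keeps PD-L1 at the cell surface. Ifng was listed at 0 in 10 tumors, at 0.53 TPM in tumor 2 of the anti-PD-1 group and at 4.29 TPM in tumor 3 of DOX/IgG1. Cmtm6 was at a mean of 147.0 TPM. For DOX/IgG1 against IgG1, the log2 fold change of the interferon-induced Gbp2 was 0.81 (limma adjusted p = 0.479), and that of the chemokine gene Cxcl9, another interferon-induced gene, was -1.64 (limma adjusted p = 0.591). Gbp2 was lower for DOX/anti-PD-1 against DOX/IgG1 at -0.92 (limma adjusted p = 0.988). None of these differences was called. Cd274 was higher in DOX/IgG1 together with Gbp2 but not with Cxcl9. The direction of the interferon-gamma list as a whole is not read from these genes.

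Regulators of T cell exhaustion and activation were led by Nr4a1, an early gene of T cell receptor signaling, at a mean of 17.8 TPM. Tox, which drives the exhausted state, was between 0.86 and 4.06 TPM. Limma called 0 of the 12 regulators in any comparison. At an unadjusted p below 0.05, 1 of 10 was lower for DOX/IgG1 against IgG1, Batf, which had 1.45, 1.10 and 1.14 TPM under IgG1 and 0 in all tumors under DOX/IgG1, and so reached the minimum level through the IgG1 tumors alone and is a description only. Likewise, 1 of 10 was lower for DOX/anti-PD-1 against DOX/IgG1, Prdm1 at -0.93 (adjusted p = 0.988), which encodes the repressor BLIMP-1. Anti-PD-1 against IgG1 and DOX/anti-PD-1 against anti-PD-1 gave 0 at that p, of 10 and 9 tested.

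Markers of the cells that carry the members moved between tumors as well. The 10 T cell markers summed to 30.0, 22.4 and 11.45 TPM for IgG1, 16.5, 21.3 and 17.8 for anti-PD-1, 16.6, 64.8 and 59.1 for DOX/IgG1, and 23.97, 27.2 and 35.5 for DOX/anti-PD-1. Cd3e was the most abundant, at 0 to 24.62 TPM, and each of the 10 was listed at 0 in at least 1 tumor. Tumors 2 and 3 of DOX/IgG1, the only ones with Pdcd1 above 1 TPM, were the highest in T cell markers, while tumor 1 of that group was among the lowest. The 8 NK and cytotoxic markers, led by Klrd1 (mean 7.88 TPM), were also highest in those 2 tumors, at 60.1 and 57.6 TPM, against 10.7 to 34.5 TPM elsewhere. At an unadjusted p below 0.05, 2 of 6 tested T cell markers were higher with anti-PD-1 alone, although 4 of the 6 log2 fold changes were below 0 with a median of -0.42, and 2 of 8 were higher for DOX/IgG1 against IgG1 (Cd3g at 2.39 and Cd247 at 2.27, limma adjusted p = 0.469 for both). For DOX/anti-PD-1 against anti-PD-1 it was 0 of 6, and 1 of 7 was lower for DOX/anti-PD-1 against DOX/IgG1. Limma called 0 T cell, regulatory T cell or NK markers in any comparison. The part of T and NK cell content in the values of Pdcd1 and Tigit was not tested.

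The 12 macrophage and monocyte markers, led by C1qa (77.9 to 166.6 TPM), summed to between 351 TPM in tumor 1 of the anti-PD-1 group and 721 TPM in tumor 1 of DOX/IgG1. Cd14 alone gave 357.22 TPM of the latter sum, against 51.9 to 157.07 TPM in the other tumors. By mean log2(TPM + 1), the list was highest in tumor 2 of DOX/IgG1 (5.00) and stood at 4.69 in tumor 1 of that group. The 9 dendritic cell markers, led by Itgax, summed to between 31.6 and 79.1 TPM, and the 9 B cell and lymph node markers, led by Ccl21a, to between 0.870 and 30.65 TPM. The 6 neutrophil markers, led by S100a8, summed to between 1.48 and 14.2 TPM, with Ly6g at 0 in every tumor. The labelled tissue held its epithelial markers, as Epcam was at 418.3 TPM or more throughout and the 7 luminal and basal markers summed to between 2034 and 3670 TPM. The 8 fibroblast and endothelial markers, led by Col1a1, summed to between 434.6 and 1423 TPM. Limma called 0 genes of these 6 lists in any comparison, and at an unadjusted p below 0.05 the macrophage and monocyte markers gave 0 higher and 2 lower of 11 tested with anti-PD-1 alone (Cd14 at -0.84 and Cd68 at -0.87, adjusted p = 0.996 for both) and 1 higher of 12 for DOX/IgG1 against IgG1. Log2 fold changes of these markers were above 0 for 9 of 11 in DOX/anti-PD-1 against anti-PD-1, where Cd86 was higher (median 0.32 against 0.11 over all genes), with 0 at that p. They were below 0 for 9 of 12 against DOX/IgG1, where Havcr2 was lower (median -0.20 against -0.04 over all genes), with 1 higher and 1 lower at that p, and the part of macrophage content in either gene was not tested. For DOX/IgG1 against IgG1, Epcam (-0.87, adjusted p = 0.469), the collagen gene Col1a1 (-1.20, adjusted p = 0.494) and the endothelial Cdh5 (-0.996, adjusted p = 0.621) were lower without overlap, each at an unadjusted p below 0.05. The lists as a whole had medians of -0.19 (epithelium) and -0.10 (fibroblast and endothelial) there, and their summed levels overlapped between the groups. With anti-PD-1 alone, Col1a1 was lower without overlap as well (-1.50, limma adjusted p = 0.564). All 7 epithelial and all 8 fibroblast and endothelial markers had log2 fold changes below 0 with anti-PD-1 alone (medians -0.29 and -0.30, against -0.03 over all genes).

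Markers of other tissues were present as well, and the source of their RNA was not tested. The 5 adipocyte markers, led by Adipoq, summed to between 36.1 TPM in tumor 1 of IgG1 and 476 TPM in tumor 1 of DOX/anti-PD-1, and the 5 skeletal muscle markers, led by Acta1, to between 0 in tumor 2 of DOX/anti-PD-1 and 669 TPM in tumor 1 of the same group. Of the adipocyte markers, 4 of 5 were higher at an unadjusted p below 0.05 for DOX/anti-PD-1 against anti-PD-1, and Adipoq (1.76), Plin1 (1.47) and Lep (1.34) did not overlap (limma adjusted p = 0.495, 0.540 and 0.520). In the same comparison 3 of 8 fibroblast and endothelial markers were higher, among them the matrix gene Dcn (1.03, limma adjusted p = 0.429), and so was the epithelial Krt19 (0.99, limma adjusted p = 0.489), while 3 of the 7 epithelial markers had log2 fold changes below 0 and their median was 0.10. The part of these tissues in the values of Cd86 and Havcr2, whose groups did not overlap there, was not tested. The 4 salivary gland markers summed to 39.0, 55.2 and 80.1 TPM in the DOX/IgG1 tumors and to between 0 and 15.2 TPM in the 9 others. Bpifa2, the most abundant of them and a secreted salivary protein gene, had 14.43, 21.34 and 53.73 TPM under DOX/IgG1 and 0 in the 9 other tumors. For DOX/IgG1 against IgG1, limma called 2 of 3 tested salivary gland markers, Bpifa2 (log2 fold change 4.73) and Smr3a (3.87), both at an adjusted p of 0.0334. Both reached the minimum level through the DOX/IgG1 tumors alone. No gene was called higher with a replicate block, or without any 1 IgG1 tumor or tumor 2 or 3 of DOX/IgG1. Both calls were thus lost there, and with a pseudocount of 0.1 only 1 gene was called higher. Salivary gland markers were thus high in the same 3 tumors in which Cd274, Tigit and Cd226 lay above IgG1, and their part in those differences was not tested. Against DOX/IgG1, Bpifa2 (-4.73) and Smr3a (-3.87) were lower without overlap in DOX/anti-PD-1 (limma adjusted p = 0.103 for both, not called). Both again reached the minimum level through the DOX/IgG1 tumors alone. Havcr2 and Cd226 were also lower without overlap in that comparison, and the part of salivary gland RNA there was not tested.

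**Figure D4:**
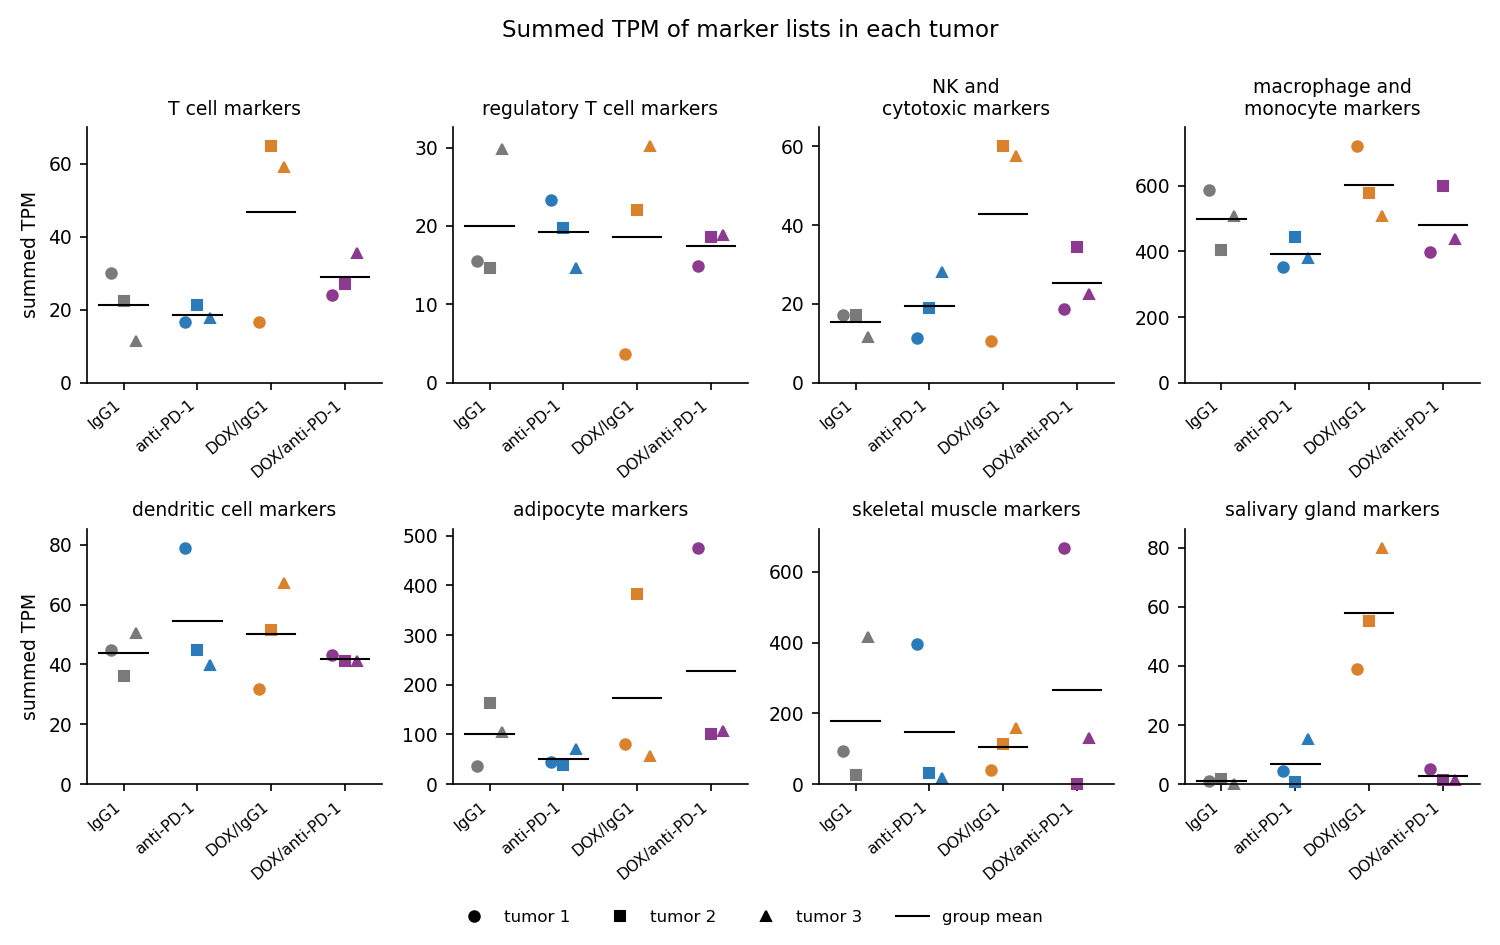
Summed TPM (y axis) of marker lists of cell types and neighboring tissues in the 12 tumors by group (x axis), each point 1 tumor. T cell and NK markers were highest in tumors 2 and 3 of DOX/IgG1, and salivary gland markers were highest in the 3 DOX/IgG1 tumors.

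Each member was correlated with the mean log2(TPM + 1) of the T cell markers and of the macrophage and monocyte markers over the 12 tumors, 20 relations in all. Pdcd1 followed the T cell markers with r = 0.85 (permutation p = 0.00214, adjusted p = 0.0428 over the 20 relations, two-sided) and a Spearman rho of 0.58 (permutation p = 0.0504, adjusted p = 0.252). Without tumors 2 and 3 of DOX/IgG1, the 2 farthest from the median of the marker level, r was 0.38, so the relation rests on those 2 tumors. After subtraction of the group means r was 0.83 (exact permutation p = 0.0556 within groups). No other relation had an adjusted p below 0.1.

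Cd276 went the opposite way from the T cell markers, with r = -0.65 (permutation p = 0.0215, adjusted p = 0.151) and a Spearman rho of -0.62 (permutation p = 0.0369, adjusted p = 0.246). It was at -0.46 without the same 2 tumors and at -0.70 (exact permutation p = 0.0448) with the group means subtracted. Cd80 had r = 0.62 with the T cell markers (permutation p = 0.0301, adjusted p = 0.151) and a Spearman rho of 0.63 (permutation p = 0.0301, adjusted p = 0.246), and r = 0.71 without the 2 tumors. Neither passed the adjustment.

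Cd86 had the highest correlation with the macrophage and monocyte markers, r = 0.64 (permutation p = 0.0228, adjusted p = 0.151) with a Spearman rho of 0.68 (permutation p = 0.0186, adjusted p = 0.246). It was 0.46 without tumor 1 of the anti-PD-1 group and tumor 2 of DOX/IgG1, and 0.29 with group means subtracted (exact permutation p = 0.477). Cd274 had r = 0.53 with the T cell markers (permutation p = 0.0752, adjusted p = 0.209, rho 0.42, permutation p = 0.179) and 0.34 with the macrophage markers (permutation p = 0.280, adjusted p = 0.374, rho 0.47, permutation p = 0.127). The remaining 14 relations had adjusted p-values between 0.209 and 0.503.

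**Figure D5:**
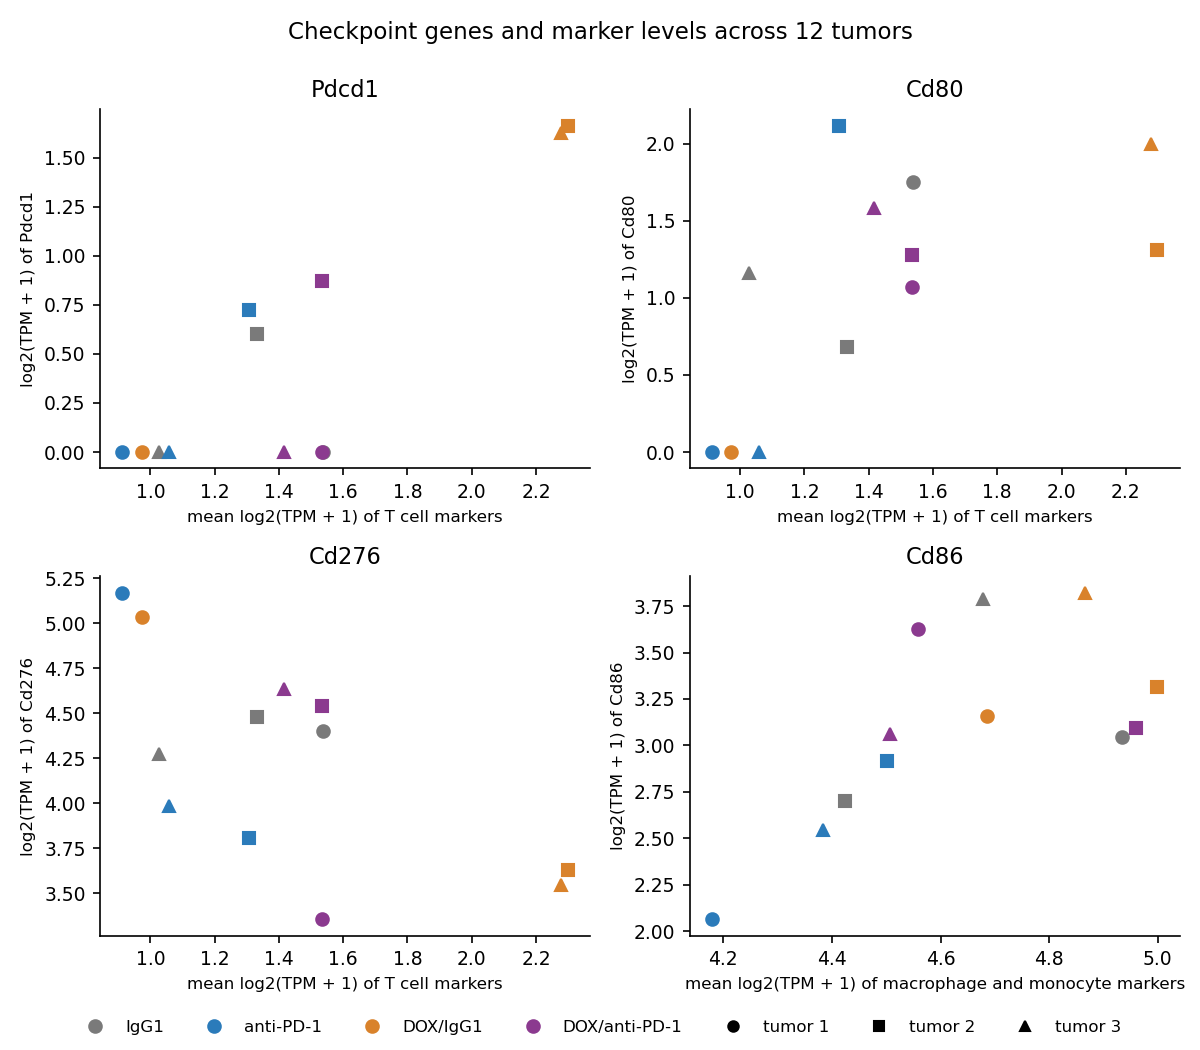
Level of members as log2(TPM + 1) (y axis) against the mean log2(TPM + 1) of a marker list (x axis), each point 1 of the 12 tumors, colored by group. Pdcd1 and the T cell markers were both highest in tumors 2 and 3 of DOX/IgG1.

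Likeness over the 12 tumors was also measured against 13638 genes with at least 1 TPM in 6 or more tumors. The 5 genes most like Pdcd1 were Zbtb37 (r = 0.90), Ly75 (0.90), Sirpb1b (0.90), Akirin1 (0.89) and Bbs1 (0.89). All 5 were highest in tumors 2 and 3 of DOX/IgG1, as Akirin1 at 37.98 and 46.43 TPM against 13.35 to 27.45 TPM elsewhere. The 5 most like Cd274 were Arc (r = 0.91), Rsad1 (0.90), Tlcd2 (0.87), Gng2 (0.86) and Ebf2 (0.86). Arc was highest in tumor 2 of DOX/IgG1 at 11.88 TPM, the tumor in which Cd274 was highest, and lowest in tumor 3 of IgG1 at 1.35 TPM, where Cd274 was lowest. These values describe the order of the tumors and carry no test.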

How the data were processed

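Total RNA of 12 PyMT tumors, 3 in each group, was made into stranded libraries. Per the submitters' processing notes, STAR, RSEM and mm10 were used, with versions not given. The authors deposited log2(TPM + 1) for 21960 genes. The log2 step was reversed, which gave multiples of 0.01 for 100% of values (tolerance 0.0001), and 21860 genes were matched to GENCODE vM21. The planned design allowed for counts, and as the files hold TPM no count test was used.

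Genes for which 3 or more of the compared tumors reached 1 TPM were tested on log2(TPM + 1) with limma 3.58.1 (R 4.3.3; lmFit, eBayes with trend, two-sided, Benjamini-Hochberg), tested on simulated data. Calls needed a log2 fold change above 1 in size together with an adjusted p below 0.1. The pseudocount of 1 understates changes of low genes. Exact permutation tests used 20 arrangements (400 in strata) and correlations 100000 permutations, in Python 3.11.15 with scipy 1.17.1. Figures were drawn with matplotlib 3.10.9. Depth is unknown, so no counting error is given.

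All 10 members were reported in every tumor, with full statistics for Pdcd1, Cd274 and members whose groups did not overlap in a comparison. Of each list, the most abundant gene and up to 3 genes with the largest change without overlap could be named, as well as partners of the members and the 5 genes most like Pdcd1 and Cd274. One gene of the interferon-gamma list, and the counts over that list, are not reported here. Further statistics of Lag3, and values of Ifng, Ptpn11 and Tox, were chosen after their values were seen. The members and lists were chosen with earlier results of these data known. Of the salivary gland markers, Muc10 was not matched. Alternatives were another pseudocount, other filters, scaling by the median of ratios, no trend, a replicate block, all tumors in one fit and leaving out tumors. Promoters were from RefSeq (GRCm38.p6).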

Additional observations from a re-analysis of the deposited data

Results flagged for a closer look

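Of the genes of the lists, 3 stood out between the antibody arms, of which limma called 1, and none was a checkpoint gene. For Bpifa2, a salivary gland marker, limma called the interaction at -4.73 on the log2 scale (adjusted p = 0.0909), as it had 14.43, 21.34 and 53.73 TPM under DOX/IgG1 and 0 in the 9 other tumors. It thus reached the minimum level through the group that makes the difference. The interaction had 0 calls with a pseudocount of 0.1, a filter on the mean, median of ratios or a replicate block, and 0 in 10 of 12 fits without 1 tumor, while without tumor 3 of DOX/anti-PD-1 the only call was of a gene in the other direction.

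Batf, a transcription factor of T and dendritic cells, had 1.45, 1.10 and 1.14 TPM for IgG1, 0, 0.68 and 0 for anti-PD-1, 0 in all 3 tumors for DOX/IgG1, and 4.07, 0.87 and 1.85 for DOX/anti-PD-1. With doxorubicin its tumors thus moved in opposite directions in the antibody arms without overlap, but limma did not call the interaction (2.49, adjusted p = 0.993).

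Zbtb46, a dendritic cell marker, had 6.71, 4.97 and 7.20 TPM for IgG1, 3.30, 4.60 and 4.21 for anti-PD-1, 6.63, 6.17 and 6.81 for DOX/IgG1, and 8.91, 9.02 and 7.5 for DOX/anti-PD-1. Zbtb46 was lower with anti-PD-1 than in its control without chemotherapy and higher with doxorubicin, in each case without overlap, and limma did not call the interaction (0.86, adjusted p = 0.993). Groups of 3 tumors were not tested for outlying values.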

How the results depend on the processing

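Members called numbered 0 under all 113 alternatives, and of 226 alternative log2 fold changes of Cd274 (7 comparisons) and of Havcr2, Tigit and Cd86 (comparisons without overlap or with a low unadjusted p, and the interaction of Havcr2), 214 kept their direction. Those of the other members were not recomputed for this count. The depth of the libraries is unknown, so its effect on low genes such as Pdcd1 was not tested. The number of genes called over the whole table moved in 55 of 113 alternatives. Removal of the 5 tumors with the fewest genes above 0, an alternative chosen after seeing the data, gave 5 calls instead of 0 for anti-PD-1 against IgG1, 118 instead of 5 for DOX/IgG1 against IgG1, 20 instead of 3 for the average of doxorubicin, 1 instead of 0 for the average of anti-PD-1 and 5 instead of 1 for the interaction. DOX/anti-PD-1 then held 1 tumor, so the interaction took its spread from the other groups. In the averages that tumor alone stood for its group. Without the trend, calls in these comparisons were 1, 13, 0, 0 and 3, and they were 3 in both DOX/anti-PD-1 comparisons, where the main count was 0. Scaling by the median of ratios gave 3 calls for DOX/anti-PD-1 against DOX/IgG1, 14 for the average of doxorubicin (3 higher and 11 lower, against 3 higher and 0 lower) and 0 for the interaction. All 12 tumors in one fit gave 2 for DOX/anti-PD-1 against DOX/IgG1. The interaction had 0 calls with a pseudocount of 0.1 or a filter on the mean and 3 with no filter. The cause was not tested.

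With a replicate block, DOX/IgG1 against IgG1 had 2 calls, the average of doxorubicin 1 and the interaction 0, and no call of a member changed. Same-numbered tumors had correlations of deviations between -0.10 and 0.13, with at most 2 of 3 pairs above 0.1, so the numbers were not taken to pair the tumors.

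Leaving out 1 tumor at a time, genes called ranged from 0 to 4 for anti-PD-1 against IgG1 (4 without tumor 1, 2 without tumor 2 of IgG1 and 1 without tumor 2 of anti-PD-1), from 0 to 122 for DOX/IgG1 against IgG1, from 0 to 4 for DOX/anti-PD-1 against anti-PD-1 (4 without tumor 2 of DOX/anti-PD-1, 1 without tumor 1 or 3 of it or tumor 1 of anti-PD-1) and from 0 to 4 for DOX/anti-PD-1 against DOX/IgG1 (4 without tumor 1 of DOX/IgG1, 1 without tumor 3 of DOX/anti-PD-1). They ranged from 0 to 212 for the average of doxorubicin, from 0 to 0 for that of anti-PD-1 and from 0 to 1 for the interaction, with 1 call in the same direction without tumor 1 of DOX/IgG1 and 1 call in the other direction, thus of another gene, without tumor 3 of DOX/anti-PD-1. Without tumor 1 of DOX/IgG1, 122 genes were called for DOX/IgG1 against IgG1 and 212 for the average of doxorubicin. Without tumor 2 of DOX/IgG1 the former was 2, and without any other tumor 0. The latter was 27, 6 and 1 without tumors 2, 1 and 3 of DOX/anti-PD-1, 5 without tumor 3 of anti-PD-1, and 0 without tumor 2 or 3 of IgG1, tumor 1 of anti-PD-1 or tumor 3 of DOX/IgG1.

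The log2 fold change of Cd274 turned to -0.0043 without the 5 tumors for anti-PD-1 against IgG1 and to 0.0082 with median of ratios for the average of anti-PD-1. Leaving out 1 tumor, it ranged from -0.084 to 0.31, from -0.33 to 0.064 for DOX/anti-PD-1 against DOX/IgG1 and from -0.12 to 0.093 for the average of anti-PD-1. For the average of doxorubicin it stayed between 0.67 and 0.88. Scaling left 1 instead of 2 members without overlap for DOX/anti-PD-1 against anti-PD-1, as Cd86 then overlapped, an alternative chosen after seeing the data.

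Relations of members with marker lists at an adjusted p below 0.1 numbered 1, and 0 both without the 2 tumors farthest from the median and with group means subtracted. Without the 2 tumors, r turned to 0.226 for Lag3, -0.440 for Havcr2 and -0.209 for Tigit with T cell markers, and to 0.124 for Cd276 with macrophage markers. With group means subtracted it turned to 0.250 for Lag3 with T cell markers, and with macrophage markers to -0.0879 for Cd274, 0.248 for Lag3 and -0.153 for Tigit. The cause was not tested.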
